A study of Homo sapiens with 23 samples.

Results

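The genes of the replication-independent histone variants H2A.Z, H3.3, macroH2A, H2A.X, H2A.J and H1.10 were followed in A549 cells depleted of THUMPD3. The members were taken by name (H2AZ1, H2AZ2, H3-3A, H3-3B, MACROH2A1, MACROH2A2, H2AX, H2AJ and H1-10), and all 9 were found among the 61806 genes of the first count table and among the 42901 genes of the deep one. A549 is an established lung adenocarcinoma cell line, and THUMPD3 is an RNA methyltransferase that makes N2-methylguanosine in tRNA. RNA-seq after ribosomal RNA depletion was analysed in 23 libraries. The 17 first libraries hold siD3 #3 (a transfected siRNA against THUMPD3, 3 libraries) with siControl (2 libraries analysed here). They also hold shD3 #1 and shD3 #4 (inducible lentiviral shRNAs, 3 libraries each) with sh1Control and sh4Control (3 each). A further 6 libraries of shD3 #1 and sh1Control, 3 each, were sequenced more deeply. The labels do not say whether these came from the same cultures or RNA as the first libraries. The controls are labelled WT and all others THUMPD3 knockdown. Cells were harvested 5 days after siRNA and 6 days after shRNA treatment began, per the study's methods, which give no separate time for the deep libraries. The shRNA cells were selected with puromycin as transduced populations, and the methods call the control samples untreated and describe the inducer, doxycycline, only for shRNA expression.

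Replication-dependent histones are made in S phase from intron-poor genes whose mRNAs end in a stem-loop in place of a poly(A) tail. The variants described here are mostly made throughout the cell cycle from polyadenylated mRNAs and are placed into chromatin by dedicated chaperones. H2A.Z marks nucleosomes beside promoters, H3.3 replaces H3 at active genes and at telomeres, macroH2A carries a large non-histone domain and is enriched in silent chromatin, H2A.X is phosphorylated around DNA double-strand breaks, and H1.10 is a linker histone.

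The genes differ in structure. H2AX, H2AJ and H1-10 each have a canonical transcript of 1 exon, like the replication-dependent genes, whereas those of H2AZ1 and H2AZ2 have 5 exons, those of H3-3A and H3-3B have 4, and those of MACROH2A1 and MACROH2A2 have 9 (GENCODE 44, GRCh38). H2AX was the only member of 9 whose transcripts hold a histone stem-loop after the stop codon, searched for as 6 perfectly paired bases that begin GG and end CC around a loop of 4 bases that begins TT. It starts 50 bases after the stop codon, inside the exon, at chr11:119094898-119094913 on the minus strand. A stem-loop within 100 bases of the stop codon was present in 63 of 68 replication-dependent histone genes and in 71 of 19947 coding genes (0.356%). The H2AX stem-loop is shown 5′ to 3′ with those of H1-3 (chr6:26234217-26234232, minus strand) and H3C12 (chr6:27890320-27890335, minus strand), replication-dependent genes described with the lists, and the capitals mark the paired stem.
H2AX: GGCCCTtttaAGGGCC
H1-3: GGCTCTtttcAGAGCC
H3C12: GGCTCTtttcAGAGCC
The canonical H2AX transcript runs on for 1089 bases after its stop codon, against 56 bases for H1-3 and 67 for H3C12, so H2AX has both the stem-loop and a longer, downstream end.

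Promoters were read from RefSeq (GRCh38.p14, 250 bases before to 50 after the start, all 9 members matched) and searched on both strands. The CCAAT box (CCAAT) was found in 6 of 9 members, against 36.36% of 15843 promoters, 53 of 63 replication-dependent histone genes and 15 of 22 S phase genes. The E2F motifs TTTCCCGC and TTTGGCGC were in 0 of 9 members (2.18% and 0.89% of promoters), and the CHR element (TTTGAA) was in 2 of 9 (12.14%), H2AZ1 and H2AX. The 6 members with a CCAAT box are printed below, as 30 bases around the box nearest to 80 bases before the start. Sequences run 5′ to 3′ on the gene's strand, with CCAAT or its reverse complement in capitals. A spacing between boxes is seen only for H2AX and H2AJ, where a pair falls inside the 30 bases.
H2AZ1 (chr4:99950331-99950360, minus): cagccATTGGtgggatgagcaatccgagtt
H2AZ2 (chr7:44848089-44848118, minus): cgggcATTGGccacagcagcgcgaggcggg
H3-3A (chr1:226061614-226061643, plus): tgagaATTGGaaaacaggtatatgtactaa
H3-3B (chr17:75779854-75779883, minus): gcccaCCAATagaaaaagtcgttggtgtat
H2AX (chr11:119095522-119095551, minus): cgggtATTGGagaaaagagCCAATcaggag
H2AJ (chr12:14774321-14774350, plus): ctgtcATTGGtcaccagagCCAATggaaag
H2AX and H2AJ share a pair of facing boxes, ATTGG and then CCAAT with 9 bases between them. This pair, counted after the printed sequences had been seen, was in 4 of 15843 promoters (0.0252%), H2AX and H2AJ among them, and in 0 of 63 replication-dependent histone genes. MACROH2A1, MACROH2A2 and H1-10 held no CCAAT box in this window.

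The depth of the first libraries was 9854294 to 22101059 counts, lowest in replicate 3 of shD3 #1, and that of the deep libraries 27285889 to 59974740. In the deep set depth followed condition, with 51101905 to 59974740 counts in controls and 27285889 to 35458367 in knockdown libraries. THUMPD3, the targeted gene, did not overlap between knockdown and control libraries in any comparison and was lower in each. Its mean level was 31.4 against 61.3 TMM-scaled cpm (counts scaled to library size) with shD3 #1, 19.8 against 63.2 cpm with shD3 #4, 11.5 against 67.1 cpm with siD3 #3, and 26.9 against 54.3 cpm in the deep libraries. The log2 fold changes were -0.97 ± 0.07 (SE), -1.67 ± 0.07, -2.54 ± 0.10 and -1.01 ± 0.06. Each comparison gave p = 0.1 in a two-sided exact permutation test, the smallest that 3 against 3 or 3 against 2 libraries allow. All 6 epithelial markers were detected in every library (KRT8 from 1230.0 to 3410.0 cpm), whereas all 5 alveolar type II markers, among them the surfactant gene SFTPC, stayed at or below 0.344 cpm. Of 9 markers of other cell types, PTPRC, CD3E, PECAM1, VWF, DCN and COL1A2 stayed at or below 0.472 cpm. The summed level of those 9 markers, set by COL1A1, LUM and in the deep libraries CD68, was higher in knockdown than in control libraries in all 4 comparisons (10.5 to 12.2 against 5.86 to 7.36 cpm with shD3 #1, and 6.74 to 8.16 against 2.89 to 3.95 cpm with siD3 #3), and its part in the results was not tested.

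The histone variants fell or were not called in all 4 comparisons, and none was called higher. A gene was called at an edgeR adjusted p under 0.05 and a change of 1.5-fold or more in either direction. With shD3 #1, 3 of 9 members were called lower (MACROH2A2, H1-10 and H2AX), against 14.6% of all genes tested. With shD3 #4, 0 of 9 were called, against 4.49% of genes called lower. With siD3 #3, 4 of 9 were called lower (H2AX, H2AZ1, H1-10 and H2AZ2), against 9.42%. In the deep shD3 #1 libraries, 3 of the 8 members that passed the filter on low counts were called lower (MACROH2A2, H1-10 and H2AZ1), against 14.1%. Genes called higher made up 14.5%, 8%, 12.5% and 15% of those tested in the same order, and 0 members were among them by edgeR or DESeq2, with 1 (H2AJ with shD3 #1) higher at an unadjusted p under 0.05. The median log2 fold change of the members was -0.31, -0.32, -0.48 and -0.41, beside medians over all genes of -0.01, 0.01, 0.03 and -0.02.

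Smaller decreases were common among the members. By the adjusted p alone, 6 of 9 were lower and 1 (H2AJ) higher with shD3 #1 (27.8% of genes lower), 6 of 9 were lower with shD3 #4 (20.8%), 7 of 9 with siD3 #3 (16.4%) and 7 of 8 in the deep libraries (31.5%). The 6 members under shD3 #4 were H2AX, H2AZ1, H2AJ, H3-3B, H1-10 and H2AZ2, each with a log2 fold change under the threshold. An unadjusted p under 0.05 was reached by 7 of 9 with shD3 #4, all lower, and DESeq2 called 1, H2AX. Every knockdown library was below every control library for 6 of 9 members with shD3 #1 (31.2% of genes), 7 of 9 with shD3 #4 (24.7%), 9 of 9 with siD3 #3 (29.5%) and 7 of 8 in the deep libraries (34%). The siD3 #3 share rests on 3 libraries against 2. In bulk RNA, fewer cells that express a gene and less RNA per cell cannot be told apart.

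**Figure D1:**
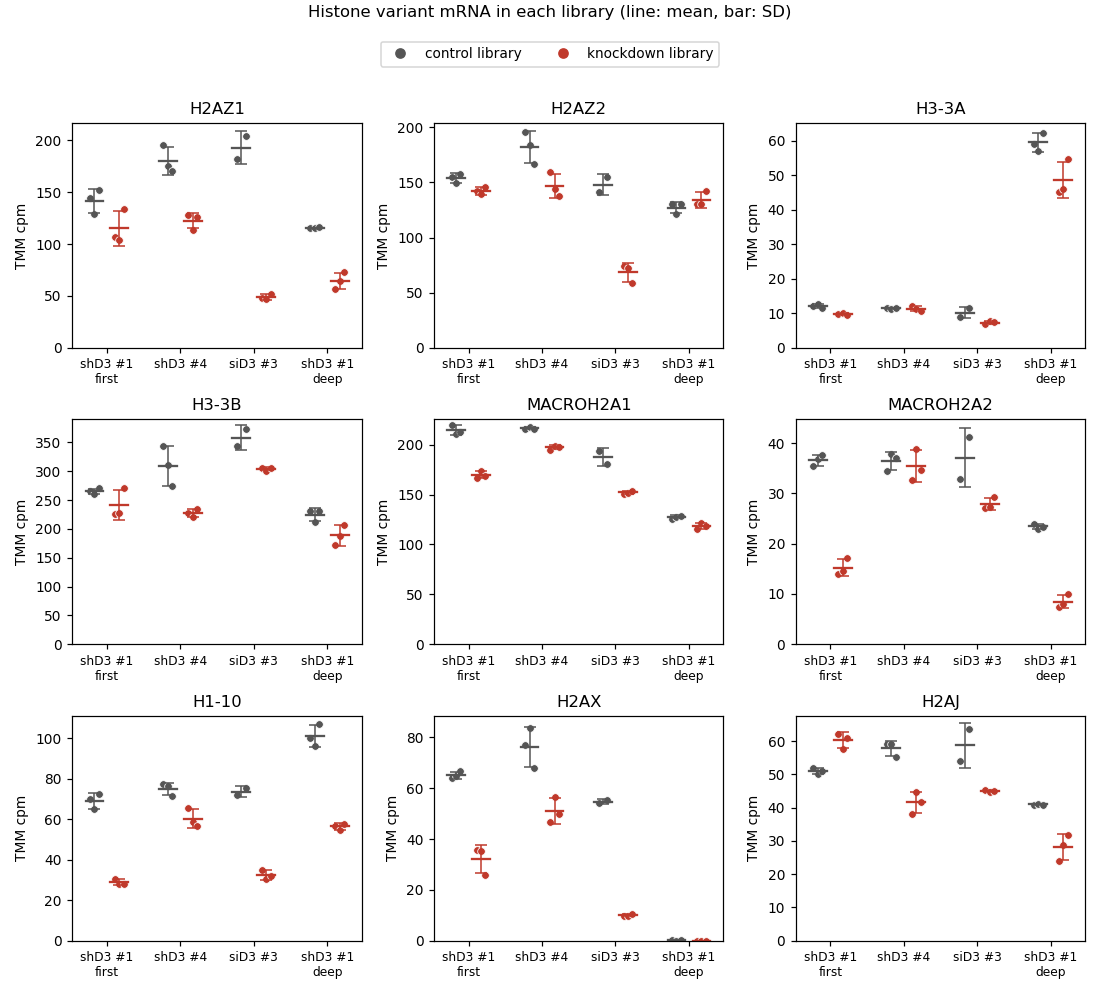
TMM-scaled cpm (vertical axis, from 0) of each of the 9 histone variant genes in every library, by comparison (horizontal axis). Points are libraries, lines are group means and bars are SDs. H2AX fell to a mean of 10.1 cpm with siD3 #3, MACROH2A2 is lower in all 6 shD3 #1 libraries than in their controls, and H2AX is close to 0 in the deep libraries.

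**Figure D2:**
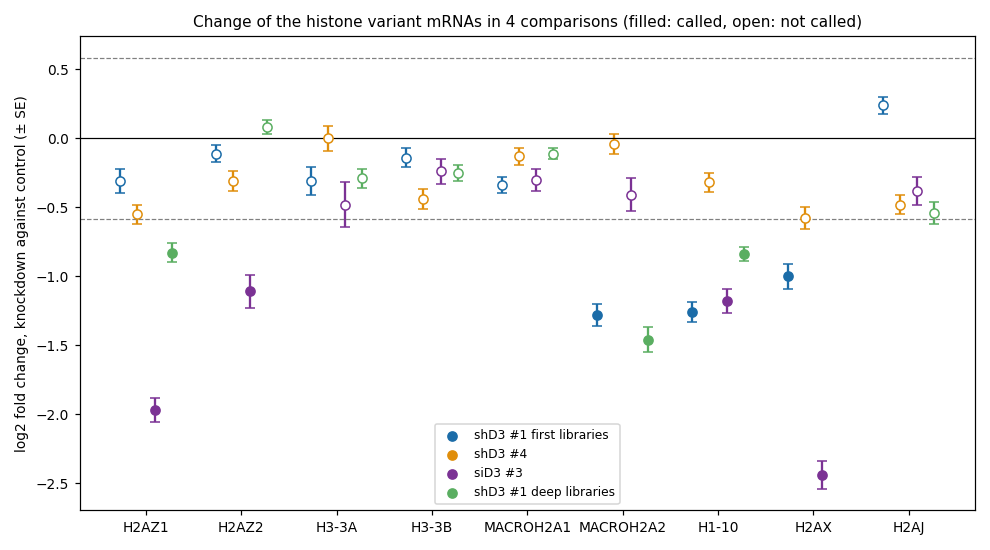
Log2 fold change of each histone variant gene, knockdown against its own control, with its SE (vertical axis), for 9 genes (horizontal axis) and 4 comparisons (colours). Filled points were called and open points were not, and dashed lines mark the fold threshold. H2AX has no point for the deep libraries, where it was not tested.

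H2AZ1 and H2AZ2 encode the nearly identical proteins H2A.Z.1 and H2A.Z.2, and both fell most with the siRNA. H2AZ1 measured 182 and 204 cpm in the siControl libraries and 47.9, 47.0 and 52.2 cpm with siD3 #3. The siD3 #3 libraries thus held 25.4% of the control mean (log2 fold change -1.97 ± 0.09, edgeR adjusted p = 1e-05). With shD3 #4 it was 128, 114 and 126 cpm against 195, 175 and 170.0 cpm in sh4Control, groups that did not overlap (log2 fold change -0.55 ± 0.07, adjusted p = 3.7e-07, under the fold threshold, but called at -0.60 without sh4Control replicate 3 and at -0.59 without shD3_4 replicate 1). With shD3 #1 the first libraries gave 107, 104 and 134 cpm against 144, 129 and 152 cpm, with replicate 3 of shD3 #1 above the lowest control (-0.31 ± 0.09, adjusted p = 0.00828). The deep libraries of the same shRNA were further apart, at 56.9, 64.1 and 72.7 cpm against 115, 115 and 116 cpm (-0.83 ± 0.07, adjusted p = 6.87e-08).

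H2AZ2 measured 141 and 155 cpm in siControl and 73.8, 72.4 and 58.7 cpm with siD3 #3, which is 46.2% of the control mean (-1.11 ± 0.12, adjusted p = 0.000387). In the shD3 #4 libraries it was 159, 144 and 138 cpm against 196, 184 and 167 cpm (-0.31 ± 0.07, adjusted p = 0.000862). No change was called with shD3 #1, where the values were 142, 139 and 146 cpm against 155, 149 and 158 cpm (-0.11 ± 0.06, adjusted p = 0.112). In the deep libraries H2AZ2 was 130.0, 130.0 and 142 cpm against 130.0, 121 and 130.0 cpm, and the groups overlapped (0.08 ± 0.05, adjusted p = 0.18). The change with siD3 #3 exceeded the mean change of both shRNAs by -1.53 ± 0.12 on the log2 scale for H2AZ1 (adjusted p = 4.68e-09) and by -0.89 ± 0.11 for H2AZ2 (adjusted p = 3.62e-06), in the interaction contrast over all 17 first libraries, which called 7.12% of genes in that direction. Between the shRNAs, H2AZ1 and H2AZ2 differed by 0.25 and 0.20, with 95% intervals from -0.01 to 0.50 and from -0.04 to 0.43. Both genes have processed pseudogenes of near-identical sequence, so reads may be divided among copies.

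Neither H3.3 gene was called in any of the 4 comparisons, nor was MACROH2A1 or H2AJ. H3-3A and H3-3B encode the same protein from different mRNAs. H3-3B, the more abundant per kb of transcript, measured 343 and 373 cpm in siControl and 305, 301 and 306 cpm with siD3 #3, and the groups did not overlap (-0.24 ± 0.09, adjusted p = 0.0788). Under shD3 #4 the values were 228, 220.0 and 234 cpm against 343, 310.0 and 274 cpm (-0.44 ± 0.07, adjusted p = 2.15e-05). With shD3 #1 it was 225, 228 and 271 cpm against 265, 261 and 270.0 cpm, where replicate 3 of the knockdown lay above all controls (-0.14 ± 0.07, adjusted p = 0.106). In the deep libraries H3-3B was 172, 187 and 207 cpm against 231, 212 and 231 cpm (-0.25 ± 0.06, adjusted p = 0.00209).

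H3-3A gave 9.84, 9.95 and 9.47 cpm with shD3 #1 against 12.1, 12.8 and 11.5 cpm (-0.31 ± 0.10, adjusted p = 0.016). The shD3 #4 libraries gave 12.1, 11.3 and 10.7 cpm against 11.6, 11.1 and 11.5 cpm, overlapping groups (adjusted p = 0.987). With siD3 #3 it was 6.75, 7.71 and 7.37 cpm against 8.99 and 11.4 cpm (-0.48 ± 0.16, adjusted p = 0.054). The deep libraries counted H3-3A at 45, 46.1 and 54.6 cpm against 59.1, 57.0 and 62.3 cpm (-0.29 ± 0.07, adjusted p = 0.00181), several times the level of the first libraries. The first table lists genes by Ensembl ID and the deep table by symbol, and whether annotation or reads shared with processed pseudogenes of H3-3A set this gap was not tested.

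MACROH2A2 separated the shRNAs. MACROH2A1 and MACROH2A2 encode macroH2A1 and macroH2A2. MACROH2A2 measured 13.9, 14.6 and 17.2 cpm with shD3 #1 against 35.4, 36.8 and 37.6 cpm in sh1Control, 41.5% of the control mean (-1.28 ± 0.08, edgeR adjusted p = 2.88e-09). The deep libraries gave 7.50, 8.05 and 9.92 cpm against 24.0, 23.0 and 23.4 cpm, which is 36.2% of the control mean (-1.46 ± 0.09, adjusted p = 2.71e-09). With shD3 #4 it was 32.7, 38.9 and 34.6 cpm against 34.4, 37.8 and 37.0 cpm, and the groups overlapped (-0.04 ± 0.07, adjusted p = 0.668). The change with shD3 #1 was lower than that with shD3 #4 by -1.24 ± 0.13 on the log2 scale (95% interval -1.50 to -0.99, adjusted p = 2.56e-07), in a contrast that called 13.8% of genes in that direction. With siD3 #3 it was 27.1, 27.2 and 29.3 cpm against 32.9 and 41.2 cpm (-0.41 ± 0.12, adjusted p = 0.0327).

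MACROH2A1, the more abundant per kb of transcript, had no call in any comparison. It measured 167, 174 and 169 cpm with shD3 #1 against 220.0, 211 and 213 cpm (-0.34 ± 0.06, adjusted p = 8.68e-05). The siD3 #3 libraries gave 151, 152 and 154 cpm against 194 and 181 cpm (-0.30 ± 0.08, adjusted p = 0.027). Under shD3 #4 it measured 195, 199 and 198 cpm against 216, 218 and 216 cpm, which did not overlap but missed the threshold (-0.13 ± 0.06, adjusted p = 0.0791). The deep libraries gave 115, 121 and 118 cpm against 126, 128 and 129 cpm (-0.11 ± 0.04, adjusted p = 0.0244). The antisense gene PITX1-AS1 covers 27.7% of the annotated exon bases of MACROH2A1, and the strand setting of the counting is not given in the sources used here.

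H2AX showed the largest decrease of the 9 members, with the siRNA. It measured 54.1 and 55.4 cpm in siControl and 9.91, 9.88 and 10.6 cpm with siD3 #3, 18.5% of the control mean (-2.44 ± 0.10, adjusted p = 6.71e-06). With shD3 #1 it was 35.6, 35.2 and 26 cpm against 63.9, 64.7 and 66.7 cpm (-1.0 ± 0.09, adjusted p = 1.89e-07). With shD3 #4 it was 46.6, 56.6 and 49.8 cpm against 77.2, 83.8 and 68.0 cpm (-0.58 ± 0.08, adjusted p = 1.35e-06), which is just under the fold threshold. It was called without sh4Control replicate 3 (-0.67) and without shD3_4 replicate 2 (-0.67). No library of any knockdown overlapped its controls. The siD3 #3 change exceeded the mean shRNA change by -1.63 ± 0.14 (adjusted p = 1.1e-08), and the shRNAs differed by -0.42 ± 0.14 (adjusted p = 0.0206, under the fold threshold). In the deep table H2AX was not tested, with 8, 3 and 6 reads in the controls and 1, 0 and 0 in the knockdown libraries. The RefSeq span of DPAGT1, a gene of protein glycosylation on the same strand, covers all 1592 bases of H2AX, and DPAGT1 itself was at 57.4 to 60.9 cpm in the deep controls. Whether this overlap set the low deep counts of H2AX was not tested.

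H2AJ went in different directions with the same shRNA in the separately sequenced sets. H2A.J is an H2A variant known to accumulate in senescent fibroblasts. In the first libraries H2AJ measured 62.1, 57.6 and 61 cpm with shD3 #1 against 51.9, 50.2 and 51.1 cpm, all above the controls (0.24 ± 0.06, adjusted p = 0.00526). In the deep libraries it was 24.0, 28.7 and 31.9 cpm against 40.9, 41.2 and 40.8 cpm, all below them (-0.54 ± 0.08, adjusted p = 3.07e-05). With shD3 #4 it was 38.2, 44.7 and 41.8 cpm against 59.2, 59.0 and 55.2 cpm (-0.48 ± 0.07, adjusted p = 4.28e-06), and with siD3 #3 it was 45.3, 44.7 and 45 cpm against 54.0 and 63.5 cpm (-0.38 ± 0.10, adjusted p = 0.0188). None of these passed the fold threshold, except that the deep value became -0.64 without knockdown replicate 3. The change with shD3 #1 was higher than that with shD3 #4 by 0.71 ± 0.10 (95% interval 0.51 to 0.91, adjusted p = 1.16e-05) in the first libraries, where the contrast called 12.1% of genes in that direction, but it was not called by a test against a fold of 1.5.

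H1-10, the gene of linker histone H1.10, was called lower in 3 of 4 comparisons. It measured 30.5, 28.2 and 27.9 cpm with shD3 #1 against 69.9, 64.9 and 72.3 cpm (-1.26 ± 0.07, adjusted p = 7.43e-10). With siD3 #3 it was 34.9, 30.3 and 32.1 cpm against 71.8 and 75.4 cpm (-1.18 ± 0.09, adjusted p = 9.09e-05). The deep libraries gave 56.7, 54.7 and 57.8 cpm against controls of 96.0 to 107 cpm (-0.84 ± 0.05, adjusted p = 2.69e-09). With shD3 #4 the decrease was smaller, 65.4, 58.7 and 56.5 cpm against 77.3, 76.2 and 71.5 cpm, although the groups did not overlap (-0.32 ± 0.07, adjusted p = 0.000509). The difference between the shRNAs was -0.94 ± 0.11 (95% interval -1.15 to -0.73, adjusted p = 6.43e-07). The antisense gene H1-10-AS1 covers 22.8% of the exon bases of H1-10.

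Levels were compared between genes only after division by the length of the canonical transcript. In sh1Control H2AZ1 was the highest at 163 ± 13.6 cpm per kb (SD, n = 3), followed by MACROH2A1 at 112 ± 2.33, H3-3B at 98.0 ± 1.62, H2AJ at 82.4 ± 1.39, H2AZ2 at 50.8 ± 1.59, H1-10 at 45.6 ± 2.49, H2AX at 40.9 ± 0.927, MACROH2A2 at 19 ± 0.568 and H3-3A at 11.3 ± 0.590 cpm per kb. No neighbours in this order overlapped in their library values. The order rests on the canonical lengths, and division by all annotated exon bases would give another order. Those of MACROH2A1 cover 17013 bases, against 1917 in its canonical transcript, and those of H2AJ cover 3332 against 620. In sh4Control the values of H3-3B and MACROH2A1 overlapped (114 ± 12.8 and 113 ± 0.484 cpm per kb), as did those of H1-10 and H2AX (49.5 ± 2.03 and 47.9 ± 4.99). With siD3 #3, H2AZ1 was at 56.6 ± 3.23 cpm per kb, below H3-3B, MACROH2A1 and H2AJ, and H2AX was last at 6.35 ± 0.241 cpm per kb, overlapping H3-3A at 6.80 ± 0.456. In the deep controls H3-3A stood sixth at 55.6 ± 2.52 cpm per kb.

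The ratio between paralogs within a library does not depend on how the library is scaled. The log2 ratio of H2AZ1 to H2AZ2 counts per kb of exon was 1.99 and 2.02 in siControl and 1.00, 1.00 and 1.46 with siD3 #3, so the ratio differed by -0.85 on average. It differed by -0.92 in the deep libraries (0.57 ± 0.11 against 1.48 ± 0.06, SD, n = 3). With shD3 #4 it differed by -0.24, and the groups did not overlap. With shD3 #1 in the first libraries it differed by -0.20, and the groups overlapped. The log2 ratio of MACROH2A1 to MACROH2A2 was higher with shD3 #1, by 0.93 in the first libraries (3.3 ± 0.17 against 2.37 ± 0.07) and by 1.36 in the deep ones (3.63 ± 0.21 against 2.26 ± 0.04). It differed by -0.09 with shD3 #4 and by 0.10 with siD3 #3, overlapping groups in both. The log2 ratio of H3-3A to H3-3B was higher by 0.43 with shD3 #4 (-3.64 ± 0.11 against -4.07 ± 0.16) and lower by -0.24 with siD3 #3, and its groups overlapped in both shD3 #1 sets. Of the 12 two-sided exact permutation tests none could go below p = 0.1, which 6 reached (adjusted p = 0.2).

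**Figure D3:**
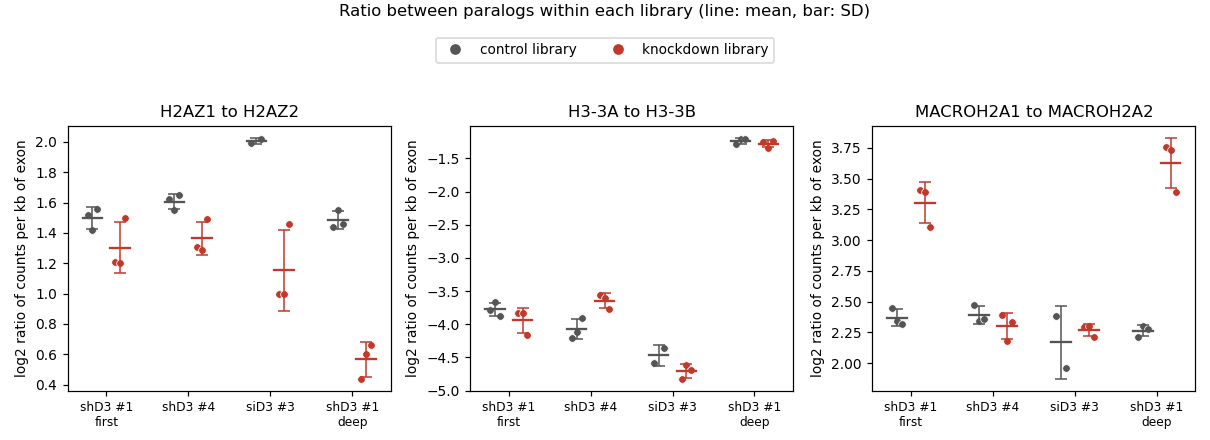
Log2 ratio of counts per kb of exon between the members of each paralog pair (vertical axes) in every library, by comparison (horizontal axis). Points are libraries, lines are group means and bars are SDs. The MACROH2A1 to MACROH2A2 ratio is higher in all 6 shD3 #1 libraries than in any of their controls. The H2AZ1 to H2AZ2 ratio is lower with siD3 #3, with shD3 #4 and in the deep knockdown libraries.

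The other histone genes tested were mostly called lower. CENPA, the centromeric H3 variant, changed by -1.27 ± 0.09, -0.66 ± 0.09 and -3.69 ± 0.17 on the log2 scale with shD3 #1, shD3 #4 and siD3 #3, and by -0.62 ± 0.08 in the deep libraries, and was called lower in all 4. H3-5, another replication-independent histone gene, was tested only in the deep libraries (-2.54 ± 0.51, adjusted p = 0.000512). Of the 68 replication-dependent histone genes 50 were tested in the first libraries. Called lower were 46 with shD3 #1, 17 with shD3 #4 and 49 with siD3 #3, with medians of -1.28, -0.54 and -3.74. The shares of all genes called lower were 14.6%, 4.49% and 9.42%. The shD3 #4 count depended on single libraries, since it was 9 without sh4Control replicate 1, 10 without shD3_4 replicate 1, 32 without sh4Control replicate 3 and 28 without shD3_4 replicate 2, and 2 genes passed a test against a fold of 1.5. In the deep libraries 46 of 53 were called lower, against 14.1% of all genes, with a median of -1.21. None of these genes was called higher, and 1 was higher at an unadjusted p under 0.05, in the deep libraries. H1-3, for example, went from 258 ± 20.3 to 9.05 ± 2.00 cpm (SD, n = 2 and 3) with siD3 #3, and H3C12 from 121 ± 8.0 to 4.78 ± 1.67 cpm. H4C13 changed by -5.16 ± 0.20 and H2BC10 by -4.76 ± 0.13 in the same comparison. H2AX changed less with siD3 #3 (-2.44) than the median of these genes (-3.74), and no other member came closer to that median. Any part of the H2AX stem-loop in this was not tested. Ribosomal RNA depletion keeps RNAs without a poly(A) tail, so both kinds of histone mRNA were counted.

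S phase genes were also called lower in the first libraries. Of 25 S phase genes, 16 were called lower with shD3 #1 (median -0.67, 14.6% of all genes) and 8 with shD3 #4 (median -0.55, 4.49%). With siD3 #3 all 25 were called lower (median -2.57, 9.42% of all genes). The deep libraries gave 4 (median -0.37), near the share of all genes, 14.1%. None was called higher in any comparison. CDC45, a replication fork helicase component, fell from 32.6 ± 1.25 to 2.76 ± 1.19 cpm with siD3 #3, RRM2, a ribonucleotide reductase subunit, from 97.3 ± 20.3 to 9.79 ± 4.37 cpm, and the transcription factor E2F1 from 38.8 ± 2.45 to 5.05 ± 0.459 cpm. GINS2, another helicase component, changed by -3.64 ± 0.15 with siD3 #3. With siD3 #3, where all 25 S phase genes were called lower, the changes of the members ran from -2.44 (H2AX) to -0.24 (H3-3B). The part of S phase cells in the decrease of the variants was not tested.

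The factors that handle the variants were less uniform. For these lists, 14.6%, 4.49%, 9.42% and 14.1% of all genes were called lower with shD3 #1, shD3 #4, siD3 #3 and in the deep libraries. In the same order, 14.5%, 8%, 12.5% and 15% were called higher. Of 10 H3.3 chaperones, 3 were called lower and 1 higher with shD3 #1 (median -0.34), 0 by edgeR and by DESeq2 with shD3 #4 (median -0.18, 5 lower and 1 higher at an unadjusted p under 0.05), 3 lower with siD3 #3 (median -0.19), and 1 of 9 lower in the deep libraries (median -0.15). ASF1B, a proliferation-linked H3-H4 chaperone, changed by -1.32 ± 0.09, -0.53 ± 0.08, -3.49 ± 0.19 and -0.72 ± 0.07 in the 4 comparisons, the second of which was under the fold threshold. DAXX, which deposits H3.3 with ATRX, fell from 19.3 ± 1.40 to 7.97 ± 0.190 cpm with shD3 #1 (-1.27 ± 0.10), together with ATRX itself (-0.76 ± 0.06), and ASF1A, the paralog of ASF1B, rose by 0.66 ± 0.08. With siD3 #3 the other called genes were DEK (-1.48 ± 0.10) and NASP (-1.34 ± 0.10). DAXX was not tested in the deep table, where its control mean was 0.0319 cpm, so it is a further gene besides H2AX that is nearly uncounted there.

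Among 21 H2A.Z exchange factors, ANP32E, the chaperone that removes H2A.Z from chromatin, changed by -1.28 ± 0.07 with shD3 #1, -1.85 ± 0.09 with siD3 #3 and -0.77 ± 0.06 in the deep libraries, and by -0.50 ± 0.08 with shD3 #4, which was not called. In all, 1 was called lower and 1 higher (ZNHIT1, 0.83 ± 0.09) with shD3 #1 (median -0.21), 1 lower with shD3 #4 (RUVBL2, -0.60 ± 0.06, median -0.07), 6 lower with siD3 #3 (median -0.29), and 1 lower and 1 higher (MORF4L1, 0.84 ± 0.05) in the deep libraries (median -0.15). Subunits of the remodelling and acetylation complexes that deposit H2A.Z made up the siD3 #3 calls besides ANP32E, among them YEATS4 (-1.55 ± 0.11), ACTL6A (-1.11 ± 0.11) and MRGBP (-0.67 ± 0.13).

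Of 19 genes that write, read or erase the phosphorylated form of H2A.X, 18 were tested. With shD3 #1, 6 were called lower and 1 higher (median -0.28), with siD3 #3 5 lower and 1 higher (median -0.27), and 1 lower with shD3 #4 and in the deep libraries (EYA2 in both, medians -0.11 and -0.15). The gene called higher was PPM1D, the phosphatase WIP1, which went from 19.9 ± 0.420 to 36.2 ± 0.828 cpm with shD3 #1 and from 23.8 ± 3.04 to 53.1 ± 0.492 cpm with siD3 #3. BRCA1 changed by -0.77 ± 0.06 and -2.61 ± 0.17 in those comparisons and BAZ1B, a kinase of H2A.X, by -1.19 ± 0.06 and -0.83 ± 0.08. MRE11 was called lower with siD3 #3 (-0.86 ± 0.09). Of 11 other histone chaperones, 2 were called lower and 1 higher with shD3 #1 (median -0.35), 0 by edgeR and 2 by DESeq2 with shD3 #4 (median -0.31, 10 lower at an unadjusted p under 0.05), 7 lower with siD3 #3 (median -0.89), and 1 lower and 1 higher in the deep libraries (median -0.23). HJURP, the CENPA chaperone, changed by -2.90 ± 0.24 with siD3 #3, CHAF1A and CHAF1B, which load histones at replication forks, by -2.76 ± 0.22 and -2.52 ± 0.14, and SSRP1, a subunit of the FACT complex, by -1.21 ± 0.09. SPTY2D1 was the gene called higher in both shD3 #1 sets (0.59 ± 0.07 and 0.67 ± 0.06).

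**Figure D4:**
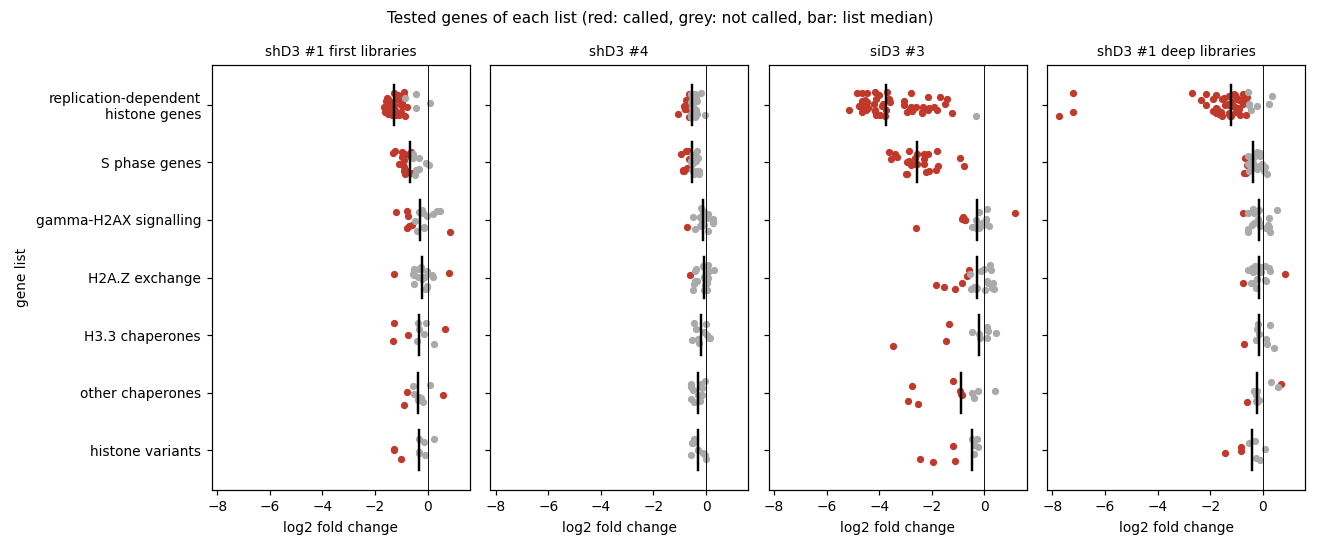
Log2 fold change (horizontal axes) of every tested gene of 7 lists (vertical axis) in 4 comparisons (panels). Red points were called, grey points were not, and black bars are list medians. The replication-dependent histone genes and the S phase genes lie furthest left with siD3 #3, with medians of -3.74 and -2.57, while the histone variants have a median of -0.48 there.

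The genes most like each member were not the same ones from member to member. For each member the genes with the most similar pattern were ranked by Pearson correlation of log2 cpm, each library centred on the mean of its own controls, over the 17 first libraries and 15656 genes. The libraries share groups and controls, and the highest of 15656 values were taken for each member, so the values are descriptions. H2AX was most like E2F1 (r = 0.991), PPIH (0.990) and MCM8 (0.989), and H2AZ1 most like PRIM1 (0.993), GINS2 and CKS2 (0.992 both), while H2AZ2 was nearest to HMGB1P5 (0.978), UNG and TOMM22. H1-10 was most like MIS18A and RBBP4 (0.985 both) and MPHOSPH9 (0.984), MACROH2A1 most like CCAR1 (0.985), HNRNPF and STIP1, and MACROH2A2 most like SGCE (0.981), DNAJC13 and KLHL11. The lowest first-ranked values belonged to H2AJ with TAGLN2 (0.975), followed by SNRPC and METAP2, to H3-3B with ATF2 (0.966), followed by ATF4 and RGS19, and to H3-3A with MIR193BHG (0.959), followed by HAUS3 and CEP70. Among the members themselves H2AZ1 and H2AZ2 had r = 0.973, H2AZ1 and H2AX 0.930, and MACROH2A1 and H1-10 0.961. H2AZ1 and MACROH2A2 had r = 0.194 and H3-3A and H3-3B 0.243. The lowest value was that of H2AJ with MACROH2A2, at -0.393, the only negative one, and H2AJ with H1-10 had r = 0.0225.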

How the data were processed

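Gene counts of 23 RNA-seq libraries of A549 cells were used, after ribosomal RNA depletion and a directional library kit. The deposited values are raw read counts per gene. The authors trimmed reads (Trimmomatic 0.40 is listed in the submitters' processing notes) and counted them with STAR 2.7.10a on GRCh38.p14. They name a RefSeq annotation, although the first table uses Ensembl IDs (61757 of 61806 were paired with a symbol) and the deep table symbols. Replicates were not pooled, and the labels call them biological. Each knockdown was compared with its own control with edgeR 4.0.16 (R 4.3.3, filterByExpr, TMM, glmQLFit and glmQLFTest, Benjamini-Hochberg over all genes tested), and the scripts were tested on simulated counts. Differences between knockdowns came from interaction contrasts over the 17 first libraries. DESeq2 1.42.0 was an alternative. The members, gene lists and tests were chosen with earlier results of these data known. Named list genes are the 4 with the largest absolute mean log2 fold change over the 3 knockdowns of the first libraries, with CENPA. Any other was chosen after its values were seen. A further gene that the rule names is not reported here. Canonical transcript lengths (GENCODE 44) for levels per kb were chosen after seeing the data. A planned comparison of protein sequences was not made. No pair of replicates agreed within counting noise. The widest gaps were those of siD3 #3 replicate 3 from replicates 1 and 2 (chi-square of counts per degree of freedom 30.44 and 34.582). Replicates 1 and 2 of siD3 #3 gave 3.755.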

Additional observations from a re-analysis of the deposited data

Results flagged for a closer look

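The effects of the knockdowns on 6 gene and contrast pairs differed past both thresholds in an edgeR interaction test over the 17 first libraries. The change with shD3 #1 minus that with shD3 #4 was -1.24 on the log2 scale for MACROH2A2, -0.94 for H1-10 and 0.71 for H2AJ. Of 9 members 2 were thus called lower and 1 higher, against 13.8% and 12.1% of all genes. The change with siD3 #3 minus the mean change of both shRNAs was -1.63 for H2AX, -1.53 for H2AZ1 and -0.89 for H2AZ2. Here 3 of 9 members were called lower, against 7.12% of all genes. These contrasts also carry the difference in THUMPD3 itself, which was 0.70 between the shRNAs and -1.21 between siRNA and shRNAs, and its part in them was not tested.

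H2AJ was higher in all 3 shD3 #1 libraries of the first set (log2 fold change 0.24) and lower in all 3 of the deep set (-0.54) than in their own controls. This difference was not tested, since the tables were counted and normalised separately.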

How the results depend on the processing

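By the adjusted p alone, without the fold threshold, the members called became 7 with shD3 #1, 6 with shD3 #4, 7 with siD3 #3, 7 in the deep libraries and 6 in the contrast of the shRNAs. The share of all genes that passed the adjusted p alone in that contrast is not given here. With shD3 #4, where 0 were called, 1 was called by DESeq2, with DESeq2 size factors, without the filter on low counts, without mitochondrial and ribosomal RNA genes and in 1 fit of all 17 libraries, and 0 to 2 when a library was left out. The cause was not tested, but H2AX and H2AZ1 lie near the threshold. The test against a fold of 1.5 ended the call of H2AJ between the shRNAs (0.71). The replicate numbers do not pair the samples (correlations of same-numbered libraries -0.08 to 0.07 with 3 against 3, and -0.11 and 0.14 for siD3 #3), and the replicate block changed no count of members called (3, 0, 4, 3, 3 and 3).

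Signs turned for values near 0. H3-3A with shD3 #4 became 0.03 with upper-quartile factors, 0.00 with at least 10 counts in every library, and -0.05 to 0.04 without a library. MACROH2A2 with shD3 #4 ran from -0.12 to 0.01 without a library, the latter without shD3_4 replicate 1. In the siRNA contrast H3-3B ran from -0.01 (without siControl replicate 1) to 0.11 without a library, and MACROH2A1 became 0.00 with upper-quartile factors. The MACROH2A1 to MACROH2A2 ratio with siD3 #3 ran from -0.11 to 0.31 without a library. Upper-quartile factors raised the median of all genes with siD3 #3 from 0.03 to 0.12. The counts of the shD3 #4 lists were the least stable. Of replication-dependent genes 17 were called there, 11 with upper-quartile factors, 2 by the test against a fold of 1.5 and 9 to 32 without a library, and of other histone chaperones 0 to 3. That test also lowered the S phase count from 8 to 5 with shD3 #4 and from 4 to 1 in the deep libraries, and the gamma-H2AX count with shD3 #1 from 7 to 4. List counts by the adjusted p alone took both directions together and follow for shD3 #1, shD3 #4 and the deep libraries. They were 8, 5 and 8 for H3.3 chaperones (4, 0 and 1 with the fold) and 12, 7 and 15 for H2A.Z exchange factors (2, 1 and 2). They were 13, 9 and 17 for gamma-H2AX genes (7, 1 and 1) and 10, 9 and 11 for other chaperones (3, 0 and 2). In the deep libraries each of these lists held genes that rose. Of all genes, 27.8%, 20.8% and 31.5% were lower by the adjusted p alone. By it, 47 replication-dependent and 25 S phase genes passed with shD3 #4, and 19 S phase genes in the deep libraries. With siD3 #3 the count of H3.3 chaperones was 5 in place of 3. Counts of 1 to 2 in other lists moved by 1 or 2 in single alternatives. Of the single-gene values 972 kept direction and call, 31 gained a call, 1 lost it and 7 changed sign.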
